A study of Mus musculus with 6 samples.

Results

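The genes described here encode the proteins of the mitochondrial ribosome, measured in cells sorted as stem cells of the mouse hair follicle. They were chosen by name: every gene with a symbol that starts with Mrpl or Mrps and a number, apart from pseudogenes whose symbol ends in -ps. This gave 71 of the 22180 genes that the arrays measured with a feature of their own, 43 of them Mrpl and 28 Mrps genes. A feature is 1 transcript cluster of the array, and where a gene had several the brightest over the 6 arrays was taken. There was no filter on low values, and all 71 entered the comparison.

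The cells came from 3 samples of K14-sPLA2-IIA transgenic mice (TG) and 3 samples of wild-type mice (WT), all taken at postnatal day 49 and sorted on CD34 and α6-integrin. In TG mice the keratin K14 promoter drives secreted phospholipase A2 group IIA, an enzyme that cuts fatty acids from membrane phospholipids. This promoter works in basal keratinocytes of skin and follicle, and is not confined to the stem cells. Neither the species of the transgene nor the number of mice behind a sample is given in the sources used here, so the p-values speak only for the spread among these 6 samples. Each sample was hybridised to 1 Affymetrix GeneChip Mouse Gene 2.0 ST array. The comparison asks how the cells sorted from TG mice differ from those sorted from WT mice. Markers of the sorted cells varied among the samples of both genotypes, as given below.

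Mitochondria keep a ribosome of their own, which translates the few proteins encoded by mitochondrial DNA, all of them membrane subunits of the respiratory chain and ATP synthase. Its RNAs come from the mitochondrial genome, but every one of its proteins is encoded in the nucleus, made in the cytosol and imported. The large subunit, whose proteins are mostly named Mrpl, joins amino acids, and the small subunit, whose proteins are mostly named Mrps, reads the mRNA. Some of these proteins descend from bacterial ribosomal proteins and others were added in the mitochondrial lineage. Bulge stem cells at rest are known to rely strongly on glycolysis.

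Promoters of genes for mitochondrial proteins often hold sites for the factors NRF1, GABP (an ETS family factor) and YY1. RefSeq promoter windows of build GRCm38.p6, from 250 bases before to 50 bases after a transcript start, were matched by symbol to 62 of the 71 genes, in 68 windows. Both strands were searched for an ETS core, CCGGAAGT, for an NRF1 motif, GCGCA and GCGC with any base between them, and for a YY1 motif, AANATGGCG. In 0 of these windows did matches of different motifs overlap. The windows below belong to Mrpl32, with the largest TG minus WT difference, and to Mrpl52 and Mrpl42, with the smallest p-values. The last belongs to Mrps18a, whose difference was below 0 with overlapping genotypes. Capitals mark the motif matches, and each sequence runs 5′ to 3′ on the strand of its gene.

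Mrpl32 (chr13:14612988-14613287, minus strand): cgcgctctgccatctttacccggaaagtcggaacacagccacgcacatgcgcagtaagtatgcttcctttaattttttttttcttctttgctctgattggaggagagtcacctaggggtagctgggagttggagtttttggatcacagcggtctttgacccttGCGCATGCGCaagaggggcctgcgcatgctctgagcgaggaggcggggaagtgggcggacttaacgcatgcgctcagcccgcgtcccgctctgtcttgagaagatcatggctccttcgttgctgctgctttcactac

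Mrpl52 (chr14:54426659-54426958, plus strand): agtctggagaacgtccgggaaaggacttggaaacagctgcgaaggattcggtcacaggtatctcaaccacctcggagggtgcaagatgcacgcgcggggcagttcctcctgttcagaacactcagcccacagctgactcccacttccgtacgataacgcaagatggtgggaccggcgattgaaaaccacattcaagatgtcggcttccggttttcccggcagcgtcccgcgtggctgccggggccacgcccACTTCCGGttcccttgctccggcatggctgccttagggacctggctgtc

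Mrpl42 (chr10:95501900-95502199, minus strand): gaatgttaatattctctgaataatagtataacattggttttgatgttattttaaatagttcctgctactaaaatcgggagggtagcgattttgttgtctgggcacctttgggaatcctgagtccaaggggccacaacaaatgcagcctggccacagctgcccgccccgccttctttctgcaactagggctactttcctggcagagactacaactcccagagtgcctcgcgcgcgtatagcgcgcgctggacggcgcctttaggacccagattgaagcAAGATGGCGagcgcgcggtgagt

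Mrps18a (chr17:46110754-46111053, plus strand): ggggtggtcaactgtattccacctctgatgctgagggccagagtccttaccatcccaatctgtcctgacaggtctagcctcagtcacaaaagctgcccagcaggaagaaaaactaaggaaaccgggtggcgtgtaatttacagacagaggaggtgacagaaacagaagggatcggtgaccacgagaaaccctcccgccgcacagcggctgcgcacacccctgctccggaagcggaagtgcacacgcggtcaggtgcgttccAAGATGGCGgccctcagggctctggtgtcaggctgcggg

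Mrpl32 held the NRF1 motif, which reads the same on both strands there, Mrpl52 the ETS core on the opposite strand, and Mrpl42 and Mrps18a the YY1 motif. Mrpl42, with a difference above 0, and Mrps18a, with one below 0 and overlapping genotypes, thus held the same motif. Of the 68 windows of mitochondrial ribosomal protein genes, 29 held at least 1 of the 3 motifs (42.6%), against 3285 of all 32851 windows in the RefSeq table (10.0%). The NRF1 motif stood in 16.2% of their windows and in 4.60% of all windows. The YY1 motif stood in 16.2% and 2.38%, and the ETS core in 14.7% and 3.89%. A match of letters is not a bound site, and no binding was measured. The 29 genes with a motif had a median TG minus WT difference of 0.17 on the log2 scale, and the 33 matched genes without one a median of 0.21. Whether the motifs bear on the difference was not tested.

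The whole group lay slightly above WT in TG cells, by a shift that was small for each gene. The TG minus WT difference was above 0 for 68 of the 71 genes, where 47.9% of all genes lay above 0. Its median was 0.20 on the log2 scale, against -0.0075 over all genes. The range ran from -0.20 for Mrpl19 to 0.64 for Mrpl32. The median value of the group on each array had a pooled SD of 0.106 within genotypes (n = 3 each). Genes measured on the same arrays are not independent. Counts of genes therefore add no replicates to the 3 samples of each genotype. No gene of the group passed the threshold of 0.05 on the adjusted p in limma, where 0.00451% of all genes did. The adjusted p was 0.99996 for each of the 71, so none of them is called changed. With no adjustment, 11 genes had p under 0.05 as higher in TG, where 1.93% of all genes did, and 0 as lower, where 0.843% did. For 22 of the 71 each TG array read higher than every WT array, where 3.99% of all genes did so. Each TG array read lower than every WT array for 0 of the 71, where 3.21% of all genes did so. Only Mrpl32 was at least 1.5-fold higher, where 1.51% of all genes were. The RNA came from sorted cells in bulk, so fewer cells of a type and less RNA per cell cannot be told apart.

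**Figure D1:**
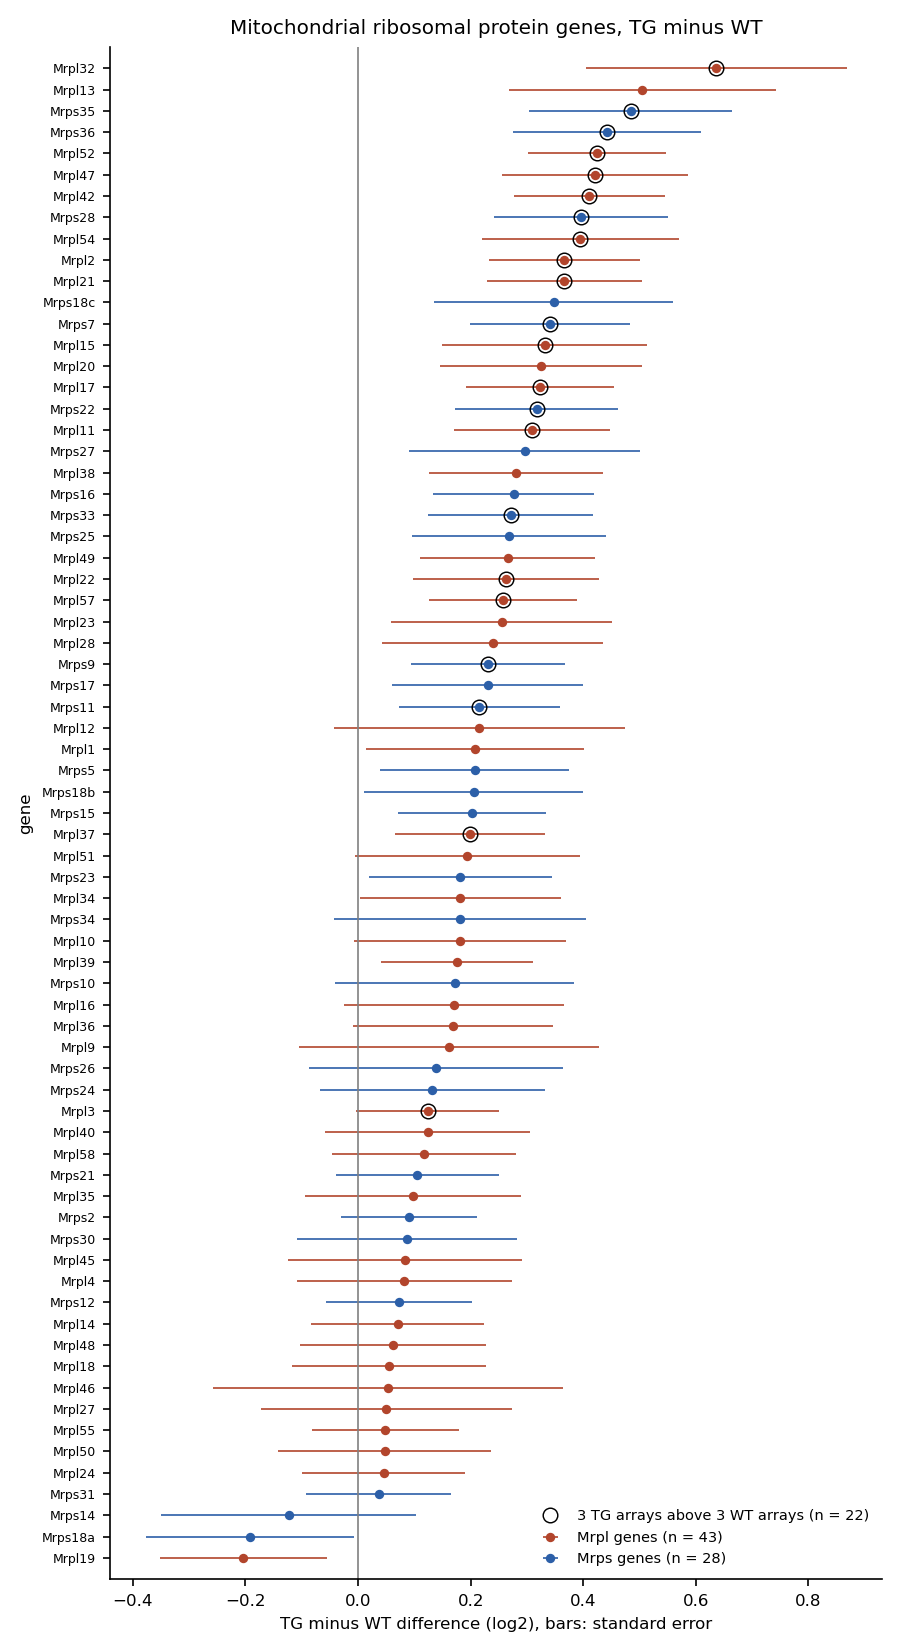
TG minus WT difference of each of the 71 genes on the log2 scale (x axis), with the standard error of the limma fit as bars and genes ordered by difference (y axis). Of the points, 68 lie right of 0, and the 22 ringed genes are those whose 3 TG arrays lay above their 3 WT arrays.

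The group is bright on these arrays, and brighter genes of all kinds were spread a little more to the TG side. Among the 11090 genes above the median level, 54.2% lay above 0 with a median of 0.023, and 68 of the 71 genes belong to them. Of those 68, 66 lay above 0.

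Among the genes named Mrpl, for the large subunit, 42 of 43 lay above 0, with a median difference of 0.19. Mrpl32 encodes a protein that has to be trimmed by the m-AAA protease of the inner membrane before it enters the ribosome. It read 7.82, 7.66 and 7.07 on TG arrays 1 to 3, against 6.99, 7.03 and 6.62 on WT arrays 1 to 3. TG array 3, the lowest of its genotype, lay only just above WT array 2, and both genotypes had their lowest value on array 3. The difference was 0.64 ± 0.23 (SE, n = 3 each), a ratio of 1.55 (limma, adjusted p = 0.99996).

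Mrpl52 had the smallest p-value of the group. This protein of the large subunit has no bacterial counterpart. It read 9.87, 9.79 and 9.99 on the TG arrays, against 9.53, 9.41 and 9.44 on the WT arrays. The genotypes were separated by more than either one's range. The difference was 0.42 ± 0.12 (SE, n = 3 each), with an unadjusted p of 0.0113 and an adjusted p of 0.99996 in limma.

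Mrpl42, another large-subunit protein added in mitochondria, read 10.14, 9.86 and 10.10 in TG, against 9.54, 9.69 and 9.64 in WT. TG array 2 came nearest to the WT arrays. Its difference was 0.41 ± 0.13 (SE, n = 3 each). Mrpl2, whose bacterial homologue lies beside the centre that joins amino acids, read 10.08, 10.01 and 10.00 in TG, against 9.66, 9.83 and 9.50 in WT. Its TG arrays were nearly equal and the WT arrays more spread, and the difference was 0.37 ± 0.13 (SE, n = 3 each). Mrpl21, which also has a bacterial homologue, read 9.70, 9.46 and 9.76 in TG, against 9.38, 9.24 and 9.21 in WT, a difference of 0.37 ± 0.14 (SE, n = 3 each). Its lowest TG array was close to its highest WT array.

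Mrpl13, the homologue of bacterial L13, had the second largest difference, but its genotypes overlapped. It read 9.67, 9.08 and 9.87 in TG, against 8.92, 8.90 and 9.29 in WT. TG array 2 fell below WT array 3, and array 3 was the highest of each genotype, the opposite of Mrpl32. The difference was 0.51 ± 0.24 (SE, n = 3 each).

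Mrpl12 forms the flexible stalk that brings translation factors to the ribosome. It read 7.66, 7.32 and 7.01 in TG, against 7.42, 7.28 and 6.65 in WT, a difference of 0.21 ± 0.26 (SE, n = 3 each). The genotypes overlapped, and array 3 was lowest in both. Mrpl19, the only gene named Mrpl below 0, read 8.61, 8.50 and 8.50 in TG, against 8.60, 8.63 and 8.98 in WT. Most of its difference of -0.20 ± 0.15 (SE, n = 3 each) came from the high value on WT array 3.

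The smallest differences among genes named Mrpl were those of Mrpl24 and Mrpl50. Mrpl24, a homologue of bacterial L24, read 11.06, 11.15 and 10.75 in TG, against 10.94, 10.97 and 10.92 in WT, with a difference of 0.05 ± 0.14 (SE, n = 3 each). Mrpl50 differed by 0.05 ± 0.19 (SE, n = 3 each). In both, the TG arrays surrounded the WT arrays.

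Among the genes named Mrps, mostly of the small subunit, 26 of 28 lay above 0, with a median difference of 0.21. Mrps35 encodes a protein added in mitochondria. It read 9.10, 8.95 and 8.64 in TG, against 8.40, 8.64 and 8.21 in WT. TG array 3 and WT array 2 were nearly equal, so the genotypes barely separated. The difference was 0.48 ± 0.18 (SE, n = 3 each), with an adjusted p of 0.99996 in limma.

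Mrps28, of the small subunit, read 8.34, 8.13 and 7.96 in TG, against 7.89, 7.76 and 7.59 in WT. The arrays ran in the same order in both genotypes, and the 3 differences between same-numbered arrays were 0.45, 0.37 and 0.37. The mean difference was 0.40 ± 0.15 (SE, n = 3 each). Mrps36 is named for the ribosome but its product is known as a part of the α-ketoglutarate dehydrogenase complex of the citric acid cycle. It read 5.33, 5.74 and 5.83 in TG, against 5.25, 5.24 and 5.09 in WT, a difference of 0.44 ± 0.17 (SE, n = 3 each). These values lie below the median level of all genes, and TG array 1 lay close to the WT arrays.

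Mrps12, the homologue of bacterial S12 of the decoding centre, read 7.43, 7.52 and 7.72 in TG, against 7.52, 7.48 and 7.45 in WT. The genotypes overlapped, and the difference was 0.07 ± 0.13 (SE, n = 3 each). Mrps14 read 5.68, 5.56 and 6.28 in TG, against 5.91, 5.78 and 6.20 in WT, a difference of -0.12 ± 0.23 (SE, n = 3 each). Array 3 was again the highest of each genotype. Mrps31, the gene of the group closest to 0, differed by 0.04 ± 0.13 (SE, n = 3 each).

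**Figure D2:**
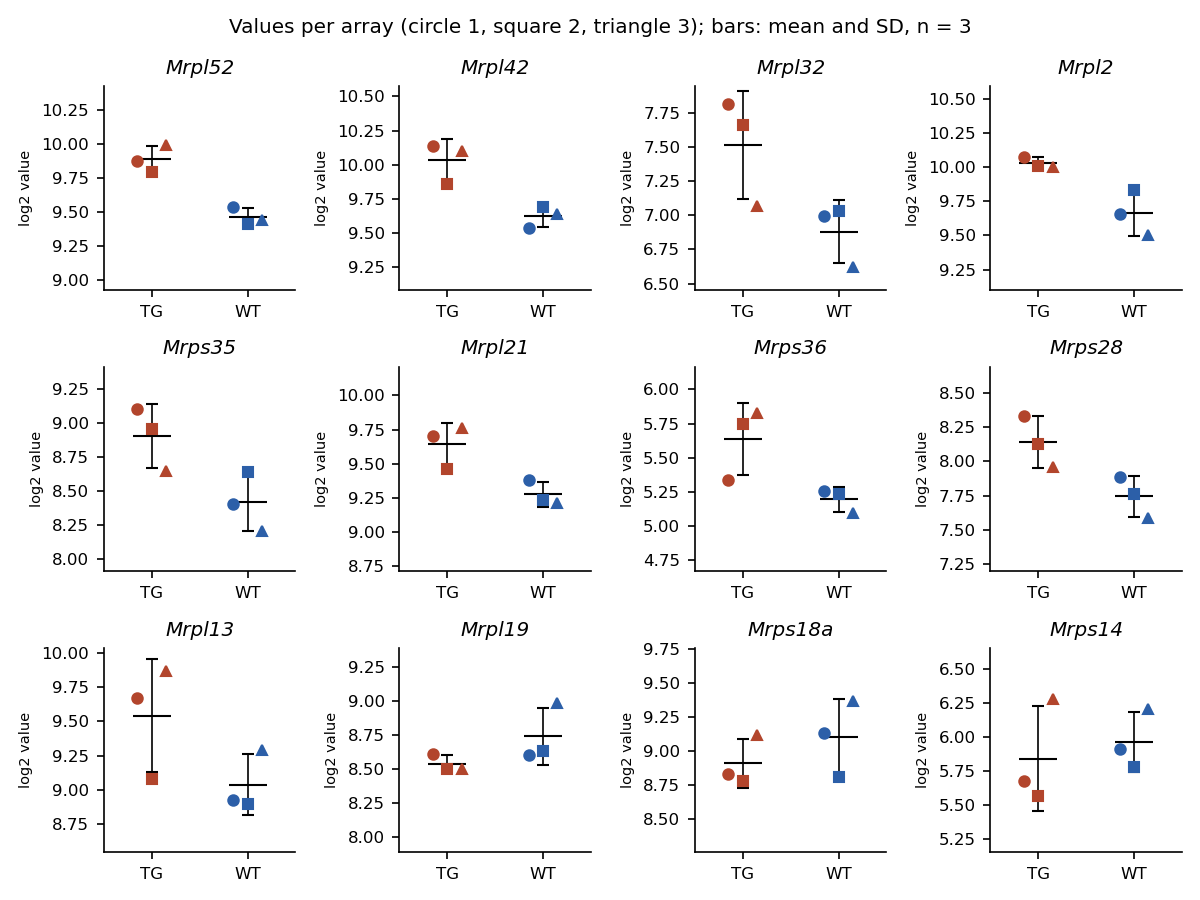
Log2 values of 12 genes on the 3 TG arrays (left, red) and the 3 WT arrays (right, blue), with mean and SD; each panel spans the same 1.5 log2 units. The first 8 panels show genes without overlap between the genotypes, Mrpl13 overlaps, and Mrpl19, Mrps18a and Mrps14 are the 3 genes with a TG minus WT difference below 0.

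The 3 Mrps18 genes are paralogues of bacterial S18 that sit at different places. The Mrps18c product takes the place of S18 in the small subunit, that of Mrps18b lies elsewhere in the small subunit, and that of Mrps18a belongs to the large subunit despite its name. Mrps18c read 8.72, 8.41 and 8.74 in TG, against 8.61, 8.33 and 7.89 in WT, a difference of 0.35 ± 0.21 (SE, n = 3 each). Mrps18b read 9.47, 9.33 and 9.34 in TG, against 9.42, 9.33 and 8.77 in WT, a difference of 0.21 ± 0.19 (SE, n = 3 each). In both, arrays 1 and 2 of the genotypes were close and WT array 3 stood low. Mrps18a read 8.83, 8.78 and 9.12 in TG, against 9.13, 8.81 and 9.36 in WT. It was the only gene of the 71 for which each TG array lay below the WT array of the same number, and its difference was -0.19 ± 0.18 (SE, n = 3 each). This was -0.06 without WT array 3, -0.13 without TG array 2, -0.30 without TG array 3 and -0.34 without WT array 2. The genotypes overlapped for all 3 paralogues. Mrps30, a second gene with a small-subunit name and a product in the large subunit, differed by 0.09 ± 0.20 (SE, n = 3 each).

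By a list of direct counterparts of bacterial ribosomal proteins, in which Mrps18c alone of the Mrps18 genes stands for S18, 41 of 43 genes with a counterpart lay above 0, with a median of 0.21. Of the 28 others, Mrps18a and Mrps18b among them, 27 did, with a median of 0.20. Proteins of the same ribosome that carry other names include the Dap3, Ptcd3 and Gadd45gip1 products, the only ones measured from the list used. Their genes differed by 0.08 ± 0.13, 0.10 ± 0.13 and 0.17 ± 0.14 (SE, n = 3 each). All 3 lay above 0 and none was called.

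The group was not even across arrays of 1 genotype. For 40 of the 71 genes TG array 1 was the highest of the 6 arrays, which held for 15.1% of all genes. For 44 of the 71 WT array 3 was the lowest, which held for 25.4% of all genes. The median deviation from a gene's own mean over the 6 arrays was 0.21, 0.07 and 0.05 on TG arrays 1 to 3, and -0.03, -0.04 and -0.25 on WT arrays 1 to 3. Each TG median thus lay above each WT median, with TG array 1 and WT array 3 at the ends. Without TG array 1 there were 61 of 71 genes above 0, with a median difference of 0.14. Without WT array 3 there were 57, with a median of 0.15.

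**Figure D3:**
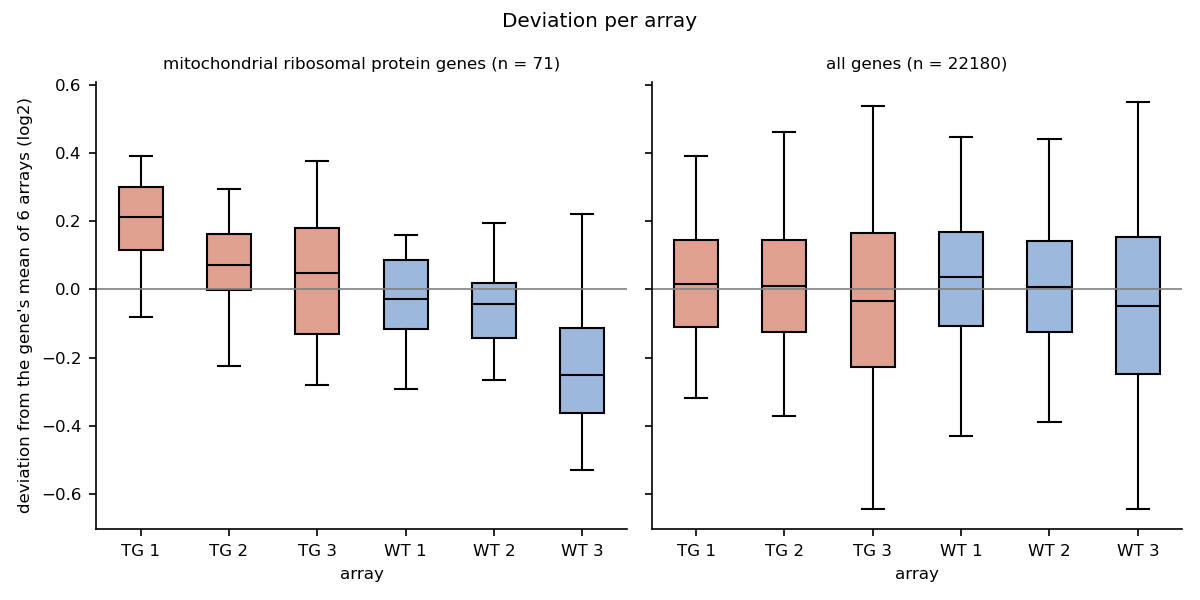
Deviation of each gene from its mean over the 6 arrays (y axis, log2), by array with TG left of WT, for the 71 genes and for all 22180 genes. Boxes show the quartiles, the line the median and the whiskers the 5th to 95th percentiles. The medians of the 71 genes run between 0.21 on TG array 1 and -0.25 on WT array 3, while those of all genes stay between -0.049 and 0.036.

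Set against the WT array of the same number, TG array 1 was higher for 62 of the 71 genes, TG array 2 for 54 and TG array 3 for 61. Over all genes these shares were 45.5%, 49.9% and 49.6%. The median differences within the pairs were 0.24, 0.13 and 0.25. The pairs were chosen from correlations in these same data, so p-values from a fit that uses them are not an independent test. A fit with these pairs as blocks gave 16 of the 71 genes an unadjusted p under 0.05 as higher, where 4.59% of all genes had one, and 0 as lower, where 3.86% had one, and still called none of them. All 3 pairs lay above 0 for 43 of the 71 genes, where 14.6% of all genes did so, and all 3 below 0 for Mrps18a alone, where 16.9% of all genes did so.

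The arrays numbered 3 stood apart from the other arrays over all genes. On the first principal component, with 64.6% of the variance, TG array 3 and WT array 3 lay at 53.3 and 50.2. TG array 2 and WT arrays 1 and 2 lay together at -34.3, -32.7 and -33.6. TG array 1 lay between these and the arrays numbered 3, at -2.78. Within TG, array 3 was below the mean of the other arrays for 47 of the 71 genes, with a median deviation of -0.07, where 55.5% of all genes lay below, with a median of -0.056. Within WT it was so for 54 of the 71, with a median of -0.24, where 57.0% of all genes lay below, with a median of -0.072. The genes that varied most within a genotype followed this in part. Mrpl46, of the large subunit, read 8.36, 8.31 and 7.43 in TG, against 8.14, 8.27 and 7.54 in WT, so both arrays numbered 3 were low and the genotypes hardly differed. Mrpl9 went the other way in WT, where it read 7.56, 8.26 and 8.62, and was even in TG at 8.37, 8.28 and 8.27. Without both arrays numbered 3, 60 of 71 genes lay above 0, with a median of 0.18.

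Markers of the sorted cells varied within both genotypes. Cd34, the surface protein used for the sort, read 11.57, 9.65 and 12.42 in TG, against 9.78, 9.89 and 13.07 in WT. TG array 2 and WT arrays 1 and 2 were low in it. The stem cell markers Lgr5, Tcf7l1, Sox9, Lhx2 and Nfatc1 were lowest on the same arrays. More WT than TG arrays were thus low in these markers. The part of this imbalance in the TG minus WT differences was not tested. Lgr5 read 9.18, 7.04 and 10.20 in TG, against 7.21, 7.45 and 10.72 in WT. Itga6 and Krt14 were not low on these arrays. Krt15, a bulge keratin, stayed between 13.27 and 13.50 in TG and between 13.21 and 13.37 in WT. Of 9 measured stem cell markers 8 lay above 0, at a mean level of 10.30 to 11.36 in TG and 10.29 to 11.57 in WT. All 9 measured cell cycle markers had a difference above 0, with a median of 0.55 and a mean level on the arrays of 9.08 to 9.92 in TG and 8.52 to 9.14 in WT. Without overlap 3 of them lay higher, where 3.99% of all genes did, and 0 lower, where 3.21% did, and 0 were called. The lowest array of the 9 markers, WT array 3, was also the lowest of the mitochondrial ribosomal protein genes, while their highest was TG array 3. All 6 suprabasal keratinocyte markers lay below 0, at a mean level of 10.62 to 12.37 in TG and 10.94 to 12.55 in WT. Their median difference within the same-numbered pairs 1, 2 and 3 was -0.77, -0.064 and -0.25. For the stem cell markers it was 1.13, 0.009 and -0.13, so TG array 1 stood farthest from its WT counterpart in both lists. The 6 T cell markers lay below 0 too, at 6.93 to 9.07 in TG and 7.21 to 8.78 in WT. The 6 fibroblast markers lay above 0, at 6.07 to 6.45 in TG and 5.81 to 6.09 in WT. The 5 measured Langerhans cell and macrophage markers, with 1 above 0, lay at 6.21 to 7.08 in TG and 6.50 to 7.11 in WT. For the 6 melanocyte markers, 2 above 0, the range was 6.66 to 7.02 in TG and 6.14 to 7.49 in WT, and for the 5 endothelial markers, 4 above 0, it was 5.56 to 6.28 in TG and 5.48 to 6.12 in WT. The part of these cells in the shift was not tested. The mouse gene of the transgene's enzyme, Pla2g2a, was the 1 gene called over all genes, and read 12.61, 12.57 and 12.39 in TG, against 6.77, 5.75 and 5.90 in WT (adjusted p = 0.00255 in limma, and 0.0650 without TG array 1).

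Genes that build or serve the mitochondrial ribosome did not all lie to one side. Of 24 measured assembly factors, 13 had a difference above 0, with a median of 0.0011, and 0 were called. The median ran from -0.042 to 0.072 when single arrays were left out. Gtpbp10, a GTPase that helps mature the large subunit, read 6.75, 6.82 and 6.84 in TG, against 7.63, 7.14 and 6.95 in WT, a difference of -0.44 ± 0.19 (SE, n = 3 each). All its TG arrays lay below its WT arrays. Nsun4, an rRNA methyltransferase, differed by -0.40 ± 0.23 (SE, n = 3 each) and Mtg1, a GTPase of large-subunit assembly, by 0.24 ± 0.16.

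Of 15 translation factors 9 lay above 0, with a median of 0.048, which became -0.013 when TG array 1 was left out, 0.0029 when WT array 3 was and 0.15 when TG array 3 was. The release factor gene Mtrf1l differed by 0.29 ± 0.13 (SE, n = 3 each) without overlap. Gatb, of the enzyme that completes glutaminyl-tRNA, differed by -0.23 ± 0.17, lower without overlap. Of 16 mitochondrial aminoacyl-tRNA synthetases, which load tRNAs with amino acids, 10 lay above 0, with a median of 0.069, which became 0.0015 when WT array 3 was left out, 0.044 when TG array 1 was, 0.12 when WT array 2 was and 0.17 when TG array 3 was. Yars2, which loads tyrosine, differed by 0.37 ± 0.15 without overlap. None of these genes was called.

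Factors that copy, transcribe and process mitochondrial DNA and RNA lay above 0 for 17 of 24 genes, with a median of 0.14. Tfam, which packs mitochondrial DNA and starts its transcription, read 7.15, 7.08 and 7.86 in TG, against 6.78, 6.78 and 6.96 in WT. Its genotypes did not overlap, and the difference was 0.53 ± 0.23 (SE, n = 3 each). Grsf1, of the mitochondrial RNA granules where ribosome assembly begins, differed by 0.32 ± 0.12, also without overlap. In this list 6 genes lay higher without overlap, where 3.99% of all genes did, and 0 lower, where 3.21% did, and 0 were called.

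The mRNAs that the mitochondrial ribosome translates were represented by 10 of the 13 mitochondrial protein genes, and 9 of these lay above 0, with a median of 0.15. This median was 0.055 without TG array 1, 0.071 without WT array 2 and 0.088 without WT array 3. The largest difference was that of ND3, a complex I subunit, which read 10.78, 10.55 and 10.07 in TG, against 10.25, 9.91 and 10.11 in WT. TG array 3 lay below WT arrays 1 and 3, and against WT array 3 only 2 of the 10 mRNAs were higher on TG array 3. Nuclear regulators of mitochondrial genes showed no common side, with 6 of 10 above 0. The largest difference among the 4 with the smallest p-values was that of Ppargc1a, a co-activator of mitochondrial genes, at -0.50 ± 0.36 (SE, n = 3 each). Ppargc1a read 6.35, 6.11 and 4.99 in TG, against 6.22, 6.09 and 6.64 in WT, so most of this came from TG array 3. Yy1 differed by 0.20 ± 0.14.

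Other gene families also lay mostly above 0. Complex I, the largest enzyme of the respiratory chain, holds subunits made by the mitochondrial ribosome. The nuclear genes named Nduf, mostly for its other subunits and its assembly factors, lay above 0 for 38 of 42, with a median of 0.27. Without overlap 14 of them lay higher, where 3.99% of all genes did, and 0 lower, where 3.21% did. Cytosolic ribosomal protein genes lay above 0 for 53 of 58, with a median of 0.11, which became 0.046 when WT array 3 was left out, 0.052 when TG array 1 was, and 0.19 when TG array 3 was. Without overlap 8 of the 58 lay higher and 0 lower, against the same shares of 3.99% and 3.21% of all genes. Their median deviation on TG array 3 was -0.10, below the 0.03 and 0.02 on WT arrays 1 and 2. In the mitochondrial ribosomal protein genes each TG median lay above each WT median. The same held for the Nduf genes, whose lowest TG median was 0.025 on array 3 and highest WT median -0.048 on array 2. The Nduf and cytosolic ribosomal families also had TG array 1 and WT array 3 at the ends. WT array 3 was the lowest of the 6 arrays for 27 of 42 Nduf genes and for 36 of 58 cytosolic ribosomal protein genes. The 3 families share the arrays, and whether they differ from each other was not tested.

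**Figure D4:**
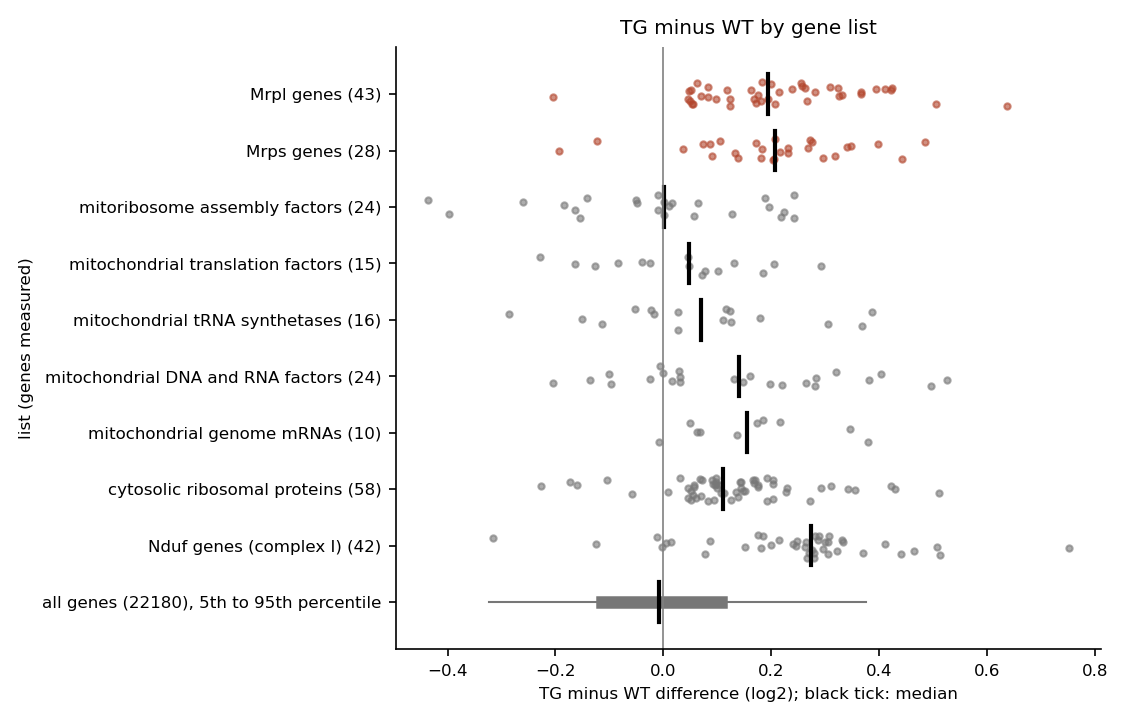
TG minus WT differences on the log2 scale (x axis) by gene list (y axis, number of genes measured), 1 point per gene and a black tick at each median. The bottom row gives all 22180 genes with quartiles (thick) and 5th to 95th percentiles (thin); Mrpl and Mrps genes lie mostly above 0, with medians of 0.19 and 0.21, and assembly factors around 0.

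Many of these genes share a start region with a neighbour. For 22 of the 62 genes with a promoter window, the window overlapped that of another gene on the opposite strand, in 35.3% of their windows against 10.8% of all windows. In 1 case both genes encode mitochondrial ribosomal proteins, Mrpl46 and Mrps11. Mrps11, of the small subunit, read 9.74, 9.35 and 9.48 in TG, against 9.33, 9.34 and 9.25 in WT, a difference of 0.22 ± 0.14 (SE, n = 3 each) without overlap. Mrpl46 differed by 0.05 ± 0.31 and was markedly low on the arrays numbered 3, where Mrps11 was not. Both genes were highest on TG array 1, and whether they varied together was not tested. The other 20 neighbours were all measured. Of these 13 lay above 0, where 47.9% of all genes did, with a median difference of 0.087. Without overlap 2 of these neighbours lay higher, where 3.99% of all genes did, and 1 lower, where 3.21% did. The mitochondrial ribosomal protein genes beside them lay above 0 for 20 of 20, with a median of 0.20. They belong to a group in which 68 of 71 did so, and the 2 sides were not tested against each other. Mrpl32 and its neighbour Psma2, a proteasome subunit gene, differed by 0.64 and 0.38. Mrps18c and its neighbour Helq, a DNA helicase gene, differed by 0.35 and -0.27.

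For 9 of the 71 genes a second, dimmer feature was measured, and all 9 of these also had a difference above 0. Mrpl47, of the large subunit, differed by 0.42 on the brightest feature and 0.49 on the dimmer one. Mrps5, of the small subunit, differed by 0.21 and 0.021.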

How the data were processed

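RNA of cells sorted as hair follicle stem cells was measured on 6 arrays, 3 TG and 3 WT. The values are the authors' deposited expression values, read as log2 from their range of 2.85 to 14.4. No source used here states the log base, summarisation or scaling, and ratios hold only for base 2. Per the submitters' processing notes, the tools were Transcriptome Analysis Console and Affymetrix Expression Console 1.4.1. The median feature lay between 5.90 and 5.99 on the arrays. Arrays have no read depth, and their number limits the precision. Detection calls were not used.

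Of 41345 features, 23521 carried 1 gene symbol in the platform annotation, 1814 several and 16010 none. Only one-symbol features were used, the brightest per gene. Another 7 mitochondrial ribosomal protein genes (Mrpl30, Mrpl33, Mrpl41, Mrpl43, Mrpl44, Mrpl53 and Mrps6) appeared only on features with several symbols and were left out. TG was compared with WT over all 22180 genes in R 4.3.3 with lmFit and eBayes of limma 3.58.1 (two-sided, Benjamini-Hochberg adjustment, threshold 0.05). The test was tried on simulated data first. It recovered 31% of 100 genes changed by 1 log2 unit and 90% of 100 genes changed by 3, with 10 false calls. Shifts as small as the median of the group were not simulated.

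Across all genes, arrays numbered 1, 2 and 3 had correlations of 0.196, 0.672 and 0.742 between genotypes in their deviations from the group mean, each above the limit of 0.1. Same-numbered arrays were therefore also fitted as pairs. This pairing rests on the data, as no label states it, and TG array 2 correlated with WT array 1 at 0.501. TG array 1 correlated with WT array 2 at 0.17, also above the limit and close to its 0.196 with WT array 1. Over the mitochondrial ribosomal protein genes alone, TG array 1 correlated at 0.337 with WT array 2 and at 0.141 with WT array 1. The correlations thus did not single out the pair of arrays numbered 1. Alternatives were other scalings, an intensity trend, array weights, mean features, brighter genes and leaving arrays out.

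The members and lists were chosen with earlier results of these data known. Genes were named by rule: up to 8 in each direction with the smallest p among those without overlap, the 4 largest differences each way, the 3 smallest, the 4 largest SDs within genotypes, the Mrps18 genes, Mrps30, Mrps36, Mrpl12 and Mrps12, and up to 4 of each other list by p. Mrps11, Mrpl47, Mrps5, Psma2, Helq, Cd34, Krt15, Lgr5, Itga6 and Krt14 were named beside it, for their promoter, second feature or role as a marker. Pseudogenes, Rps19bp1 and Rps23rg1 were dropped from the cytosolic list by symbol.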

Additional observations from a re-analysis of the deposited data

How the results depend on the processing

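The group's lean to the TG side kept its direction under every alternative run, and 0 of its genes were called in any. With the replicate block, 68 of 71 genes lay above 0 with a median of 0.202, and 16 had an unadjusted p under 0.05, against 11 without the block. The lowest adjusted p of the group was then 0.533, and the block changed no call. Genes of any kind at an unadjusted p under 0.05 went up to 1874, against 615 without the block. The block was picked from these same data, so the higher counts with it are not independent evidence of a shift. Array weights gave 65 genes above 0 and a median of 0.234, with a lowest adjusted p of 0.225, and 3119 genes of any kind at an unadjusted p under 0.05. Quantile normalization gave 68 and 0.186. When 1 array was left out, the count above 0 ran from 57 to 67 and the median from 0.143 to 0.258. The count without overlap, recounted without arrays as a choice made after seeing the data, ran from 23 to 36 without 1 array (36 without TG array 3, where 10.6% of all genes did) and was 40 without both arrays numbered 3, where 17.1% of all genes lay higher without overlap. Fewer arrays overlap less by construction. The number of genes called over all genes was 1 (Pla2g2a) and ran from 0 to 1 without 1 array (0 without TG array 1), and was 0 without both arrays numbered 3, where 1313 genes had an unadjusted p under 0.05 in limma. Of the 22 named genes, 13 kept their sign in every alternative that measured them. Without 1 array Mrps14 ran from -0.3434 to 0.0147, Mrps31 from -0.0328 to 0.0852, Mrpl24 from -0.0362 to 0.1629 and Mrpl50 from -0.1093 to 0.1987. Mrpl46 ran from -0.1689 to 0.3547, Mrpl9 from -0.1331 to 0.3981, Mrpl12 from -0.0188 to 0.3739, Mrps30 from -0.0728 to 0.2265 and Mrps12 from -0.0076 to 0.1362. Mrps12 was also at -0.0274 with array weights and at -0.0227 without both arrays numbered 3, and the cause was not tested. Signal over background was not used, so what dim features limit was not tested.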

Other observations

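Features that carry a mitochondrial ribosomal protein symbol beside another gene's were not used above, since their signal cannot be assigned. There were 13 of them, and 10 had a TG minus WT difference above 0, with a median of 0.118 and a range from -0.211 to 0.372 on the log2 scale. None of the 13 had 3 TG arrays above or below the 3 WT arrays, where 3.99% and 3.21% of all genes did, so 0 of 13 is near the background.

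Among the other 14 genes that lay higher without overlap, Mrpl47 and Mrpl54 differed by 0.42 ± 0.17 and 0.39 ± 0.18 (SE, n = 3 each) and Mrps7 by 0.34 ± 0.14. Mrpl15 and Mrpl17, homologues of bacterial L15 and L17, differed by 0.33 ± 0.18 and 0.32 ± 0.13. Mrpl3, the smallest difference of those without overlap, read 8.91, 8.86 and 8.86 in TG, against 8.83, 8.84 and 8.59 in WT. These were singled out after their values were seen.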
